A study of Rattus norvegicus with 372 samples.

Results

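The interferon stimulated genes are described here as a set of 34 named rat genes, chosen with earlier results of these data known. A gene was a member when the probe name before its final separator equalled a listed symbol, ignoring case. By the whole transcriptome (WT) assay 30 of the 34 had a probe, among 20946 gene symbols, and 23 of these passed the minimum of a mean of 10 reads per well, among 10191 genes tested. The S1500+ surrogate panel (ST) had probes for 22 members, of which 17 were tested among 1760 genes. Neither assay held a probe for Irf9, Tap1, Dhx58 or B2m. Ifit1, Ifit3, Mx1, Mx2, Oas1a, Ifi35 and Parp12 were measured by WT but stayed below the minimum.

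The samples were primary hepatocytes of male Wistar rats, cultured between layers of collagen on 96-well plates and exposed to 1 of 14 chemicals, at a high or a low concentration, over 24 hours. All treated and vehicle wells contained 0.5% DMSO, and the media wells held culture medium alone. The medium itself held dexamethasone, insulin and EGF, so every well carried a glucocorticoid. TempO-Seq, which counts pairs of detector oligos ligated on their target RNA, was run by both assays on lysates of the same wells. Each treatment had 3 wells in each of 2 batches, and each batch was 1 rat with its own library preparation and sequencing run. The wells of a batch are therefore technical replicates of 1 animal, and p-values measure mainly the spread between wells. Batch 1 had 3 vehicle wells, all on plate 4, and batch 2 had 6. In batch 1 acetaminophen, chloramphenicol, indomethacin, ketoconazole, sulfasalazine and WY14643 were on plate 5, which had no vehicle well. For these chemicals, effects of treatment and of plate cannot be told apart in that batch. In the WT assay a well held 2709504 to 8948654 reads in batch 1 and 2289425 to 8975207 in batch 2. The high and low concentrations were 10000 and 400 µM for Acetaminophen, Caffeine, Isoniazid and Valproic (valproic acid), 450 and 18 µM for Chloramphenicol, 400 and 16 µM for Diclofenac, 2 and 0.08 µM for Doxorubicin, 300 and 12 µM for Indomethacin, 15 and 0.6 µM for Ketoconazole, 2000 and 80 µM for Naproxen, 4000 and 160 µM for Ranitidine, 60 and 2.4 µM for Simvastatin, 100 and 4 µM for Sulfasalazine, and 200 and 8 µM for WY14643.

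Interferons are secreted proteins that signal through receptor-bound JAK kinases to STAT transcription factors. Type I and type III interferons activate a complex with STAT2 and IRF9 that binds the interferon-stimulated response element (ISRE), whereas interferon gamma acts through the gamma-activated sequence (GAS). The genes induced in this way encode antiviral effectors, RNA sensors, feedback regulators, chemokines and the immunoproteasome. In liver they are best known from viral hepatitis, and many are also expressed at a low level without infection.

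Promoters bear on members that share a regulator, and 27 of the 34 members matched a RefSeq promoter of the GRCr8 build. The other 7 had no entry by symbol or by a unique synonym. The letters GAAANNGAAA, used here for the ISRE and searched on both strands over 300 bases around the start, were present for 18 of these 27 (66.7%) and in 3.92% of all 33469 promoters. The letters TTCNNNGAA, used for the GAS, were present for 6 of 27 (22.2%) and in 8.87% of all promoters. These matches are descriptions of sequence only. The 250 bases before the start are given for 5 members that recur in the results below, 5′ to 3′ on the gene's strand, with the match in capitals. In Irf1 (chr10:38417685-38417934, + strand) the capitals mark the GAS letters, beginning at base -142 from the start. In Irf7 (chr1:205800024-205800273, - strand), Cxcl10 (chr14:15988816-15989065, + strand), Rsad2 (chr6:48788121-48788370, - strand) and Gbp2 (chr2:234005477-234005726, + strand) they mark the ISRE letters on either strand, beginning at bases -69, -243, -147 and -31.
Irf1: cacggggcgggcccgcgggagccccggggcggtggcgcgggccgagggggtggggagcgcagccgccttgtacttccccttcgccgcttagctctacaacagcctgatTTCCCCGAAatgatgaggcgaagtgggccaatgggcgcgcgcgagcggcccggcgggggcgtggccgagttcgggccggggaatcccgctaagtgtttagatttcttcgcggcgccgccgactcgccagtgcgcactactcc
Irf7: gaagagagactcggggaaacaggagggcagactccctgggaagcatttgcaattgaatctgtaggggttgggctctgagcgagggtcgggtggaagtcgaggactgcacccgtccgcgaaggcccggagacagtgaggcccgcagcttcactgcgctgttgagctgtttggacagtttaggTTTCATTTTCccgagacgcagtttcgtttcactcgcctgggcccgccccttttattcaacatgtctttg
Cxcl10: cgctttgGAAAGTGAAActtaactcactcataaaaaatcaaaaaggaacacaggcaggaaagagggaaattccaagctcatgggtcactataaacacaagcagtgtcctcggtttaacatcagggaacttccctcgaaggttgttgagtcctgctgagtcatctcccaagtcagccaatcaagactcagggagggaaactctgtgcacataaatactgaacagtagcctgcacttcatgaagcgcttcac
Rsad2: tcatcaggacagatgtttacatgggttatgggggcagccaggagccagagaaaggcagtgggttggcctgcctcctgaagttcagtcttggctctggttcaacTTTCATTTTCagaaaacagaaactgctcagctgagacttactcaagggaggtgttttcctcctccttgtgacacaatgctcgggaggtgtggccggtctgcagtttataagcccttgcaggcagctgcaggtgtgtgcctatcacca
Gbp2: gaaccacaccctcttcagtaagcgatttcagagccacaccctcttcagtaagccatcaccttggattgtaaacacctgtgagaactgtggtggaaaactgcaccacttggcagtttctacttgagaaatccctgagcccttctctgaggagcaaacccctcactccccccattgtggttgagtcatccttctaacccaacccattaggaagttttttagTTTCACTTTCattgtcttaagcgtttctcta

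Markers fixed for the cell types of liver were read in the vehicle wells by WT assay, in counts scaled to the total of the well (CPM). The summed level of 7 hepatocyte markers was 36750 to 39990 CPM in batch 1 and 39660 to 44000 in batch 2. The sums were 62.9 to 85.4 CPM over 9 Kupffer cell and macrophage markers and 41.4 to 85.6 CPM over 7 leukocyte markers, most of the latter from Cd74. Cd8a and Nkg7 were at 0 in every vehicle well. Cyp2e1, a hepatocyte enzyme, was low at 2.73 to 3.75 CPM in batch 1. In such mixed lysates fewer cells of a type and less RNA per cell cannot be told apart.

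Single wells stood apart from the others of their own treatment and batch in the level of these genes. A well was set apart when at least 3 tested members had a CPM + 1 over 3 times that of the next highest well of its group, a rule made after the values had been seen. There were 8 such wells, and 5 more had 1 or 2 such members. The strongest was well F02 of caffeine 10000 µM in batch 2, with 10 members past the rule. Isg15, a ubiquitin-like modifier, was at 333 CPM there and at 19.4 and 5.51 CPM in the other wells of that group. Oasl, a 2′-5′ oligoadenylate synthetase-like protein, was at 237 CPM there and at 17.8 and 1.31 CPM in the others. All 23 tested members were higher in this well than in either other well. The summed markers of leukocytes were 5.22 CPM in that well and 3.81 and 4.33 CPM in the others (6 of the 7 markers were at 0 in it), and those of Kupffer cells and macrophages were 101 CPM in it and 129.3 and 151.5 CPM in the others. Their part in the result was not tested.

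One of the 8 was a vehicle well, G10 of batch 1 (replicate 2), and every comparison with vehicle in batch 1 uses it. Its Isg15 level was 116.3 CPM, against 7.14 and 7.68 CPM in the other vehicle wells of the batch. Usp18, the protease that removes ISG15 and restrains interferon signalling, was at 9.47 CPM against 1.33 and 1.43. Oasl was at 9.10 CPM against 0.726 and 1.07. Gbp2, Psmb9 and Irf1 did not stand apart in it. The ST assay, run on the same lysates, gave 278.7 CPM of Isg15 in this well against 15.3 and 16.9. The remaining wells were F02 of caffeine 10000 µM and G02 of ranitidine 4000 µM in batch 1, B07 of ketoconazole 0.6 µM in batch 1, and E02 of diclofenac 400 µM, C08 of naproxen 2000 µM and C09 of naproxen 80 µM in batch 2. The interferon genes themselves were hardly read: 8 had probes, the highest count of any of them in any well was 3 reads, and 48 wells had a read of any. For the members named with a value, the value without the 8 wells, or without G10, is added where it ends the call or differs by over 1.5 times.

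**Figure D1:**
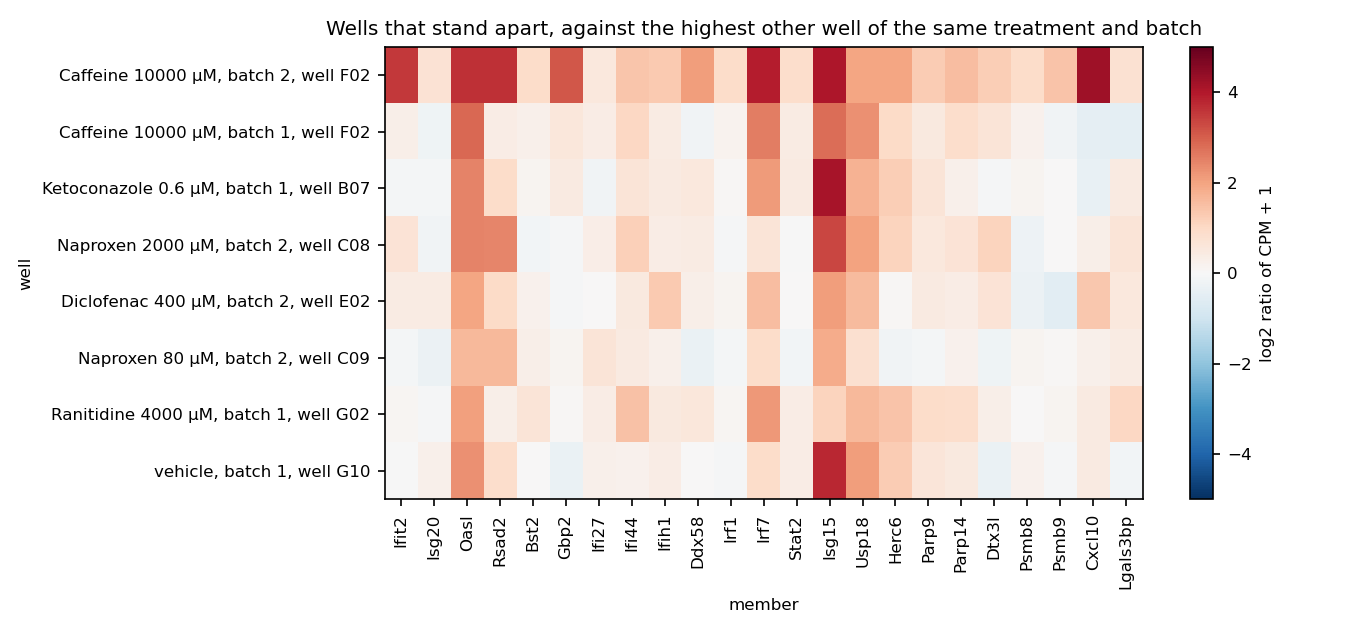
The 8 wells that stand apart (rows) are shown for the 23 tested members (columns). Color is the log2 ratio of CPM + 1 in that well to CPM + 1 in the highest other well of the same treatment and batch, with red for a higher level in the well. Isg15 and Oasl are higher in all 8 wells, while Psmb9 and Irf1 exceed the other wells clearly in caffeine of batch 2 alone.

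In vehicle wells the members spanned from no reads to well over 100 CPM. By WT assay 23 of the 30 measured members reached 1 CPM in most of the 9 vehicle wells. Levels of different genes are not ranked, since each probe pairs with its own target. Psmb8 was at 91.3 to 114.7 CPM in batch 1 and 146.6 to 197.1 in batch 2, and Bst2 was at 83.6 to 108 and 109.6 to 148.3 CPM. Gbp2 differed between the batches, with 19.1 to 25.3 CPM in batch 1 and 49.2 to 62.5 CPM in batch 2. Ifit1 had no read in 8 of 9 vehicle wells and 17 reads in G10. Rsad2 had between 0 and 7 reads in each vehicle well.

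At the high concentrations, members were lower than vehicle more often than higher. Of 322 pairs of a member and a treatment, 57 were higher and 109 lower (adjusted p below 0.05 by edgeR's quasi-likelihood test, blocked by batch, with adjustment over all genes). Over all genes tested, 25.4% of pairs were higher and 25.5% lower. At the low concentrations 4 of 322 pairs were higher and 21 lower, against 4.91% and 4.50% of all pairs. The low-concentration calls came from WY14643 8 µM (13), Valproic acid 400 µM (8), sulfasalazine 4 µM (2), indomethacin 12 µM (1) and naproxen 80 µM (1). Without the 8 wells the high-concentration counts were 60 higher and 116 lower, and with the counts of the wells added per rat they were 37 and 74. The shares of all pairs above are of the fit with all wells, and none is given for these other fits. Calls that held in each batch fitted alone, in the same direction, numbered 90 of 644 pairs over both concentrations, 21 higher and 69 lower, where 8.13% of all pairs were higher in both and 7.70% lower in both.

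**Figure D2:**
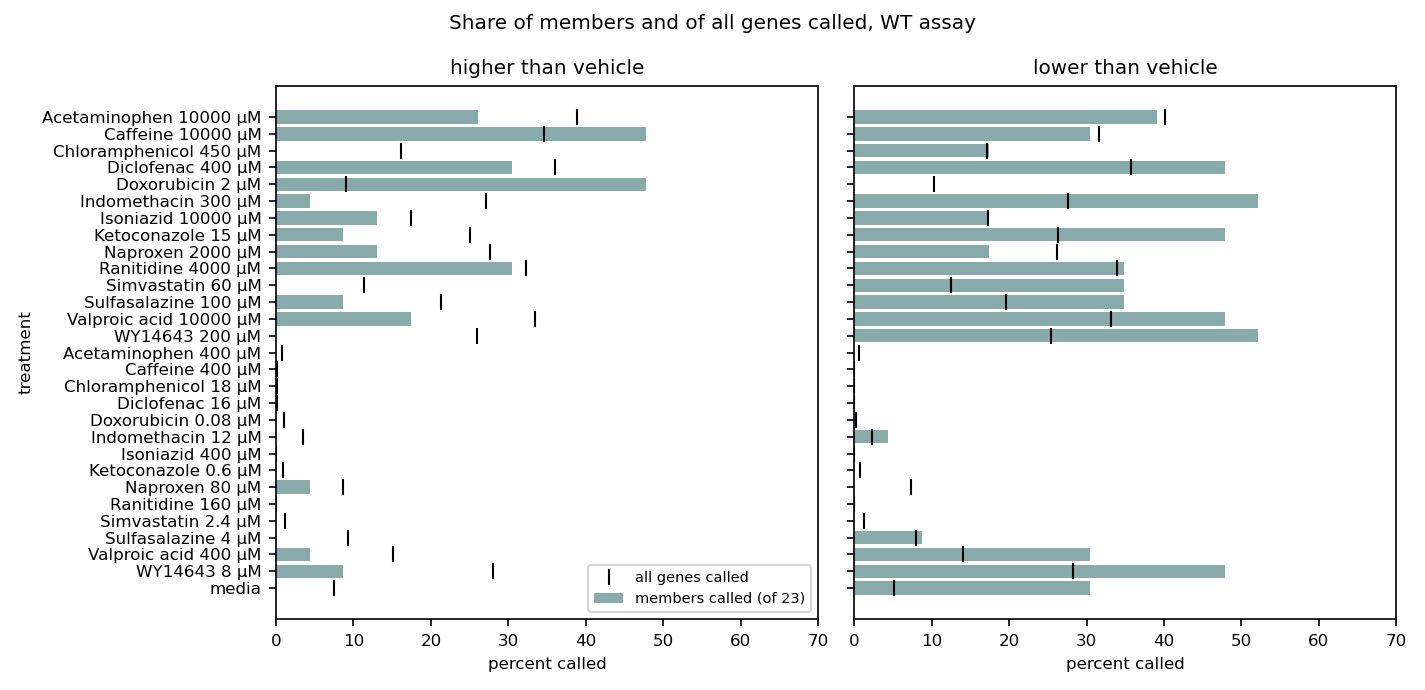
Bars give the percent of the 23 tested members called higher (left) or lower (right) than vehicle in each treatment and in culture medium by WT assay, and ticks give the percent of all 10191 genes. The bar for doxorubicin 2 µM lies well to the right of its tick among higher calls (11 of 23 against 9.07%), and it has no bar among lower calls.

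The counts differed between chemicals. Doxorubicin 2 µM raised 11 members and lowered 0, whereas 9.07% of all genes were higher and 10.3% lower. The count of 0 lower was also 0 at an unadjusted p under 0.05 and by DESeq2. Caffeine 10000 µM gave 11 higher and 7 lower (34.6% and 31.6% of all genes). It gave 5 higher and 11 lower without the 8 wells, a fit for which no share of all genes is given. Acetaminophen gave 6 higher and 9 lower (38.8% and 40.1%), diclofenac 7 and 11 (36.0% and 35.8%), and ranitidine 7 and 8 (32.3% and 33.9%). Valproic acid 10000 µM gave 4 and 11 (33.5% and 33.2%), and naproxen 3 and 4 (27.6% and 26.2%). WY14643 200 µM gave 0 higher and 12 lower (26.0% and 25.4%), with 0 higher also at an unadjusted p under 0.05 and by DESeq2. Indomethacin gave 1 and 12 (27.1% and 27.6%), ketoconazole 15 µM 2 and 11 (25.0% and 26.3%), and sulfasalazine 2 and 8 (21.3% and 19.6%). Simvastatin gave 0 and 8 (11.4% and 12.5%), with 1 higher at an unadjusted p under 0.05 and 0 by DESeq2. Isoniazid gave 3 and 4 (17.4% and 17.3%), and chloramphenicol 0 and 4 (16.1% and 17.2%), with 0 higher at an unadjusted p under 0.05 and by DESeq2. At the low concentrations WY14643 8 µM gave 2 and 11 (28% and 28.2%), and Valproic acid 400 µM 1 and 7 (15.1% and 14.0%).

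Cell type markers moved with many of these treatments. The summed level of the 7 hepatocyte markers was 36750 to 44000 CPM in vehicle, and all wells lay below that range in 12 of 14 high concentrations, the exceptions being simvastatin and sulfasalazine. It was lowest in diclofenac 400 µM, at 6930 to 9380 CPM, and was 11870 to 17630 CPM in ranitidine, 15250 to 21210 in caffeine, 15590 to 22070 in Valproic acid 10000 µM and 23230 to 36360 in acetaminophen. Biliary markers were at 4.36 to 9.52 CPM in diclofenac and 9.69 to 16.2 in naproxen, against 33.1 to 49.0 in vehicle. Those of Kupffer cells and macrophages were at 117.5 to 149.6 CPM in ranitidine and 101 to 151.5 in caffeine, above the vehicle wells at 62.9 to 85.4, and at 29.7 to 47.2 in acetaminophen and 31.7 to 43.4 in Valproic acid, below them. The genes of that list moved apart. Clec4f, Cd163 and Csf1r were lower in each of these 4 treatments, by L2FC of -3.82, -3.21 and -2.21 in caffeine, while Cd14 rose in caffeine (2.04) and ranitidine (1.90) and fell in the other two. Cd68 was at 0.06 in caffeine (not called) and rose in the other three, by 1.36 in ranitidine. The summed leukocyte markers were 3.81 to 16.95 CPM in caffeine, against 41.4 to 85.6 in vehicle. Their part in the results was not tested.

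**Figure D3:**
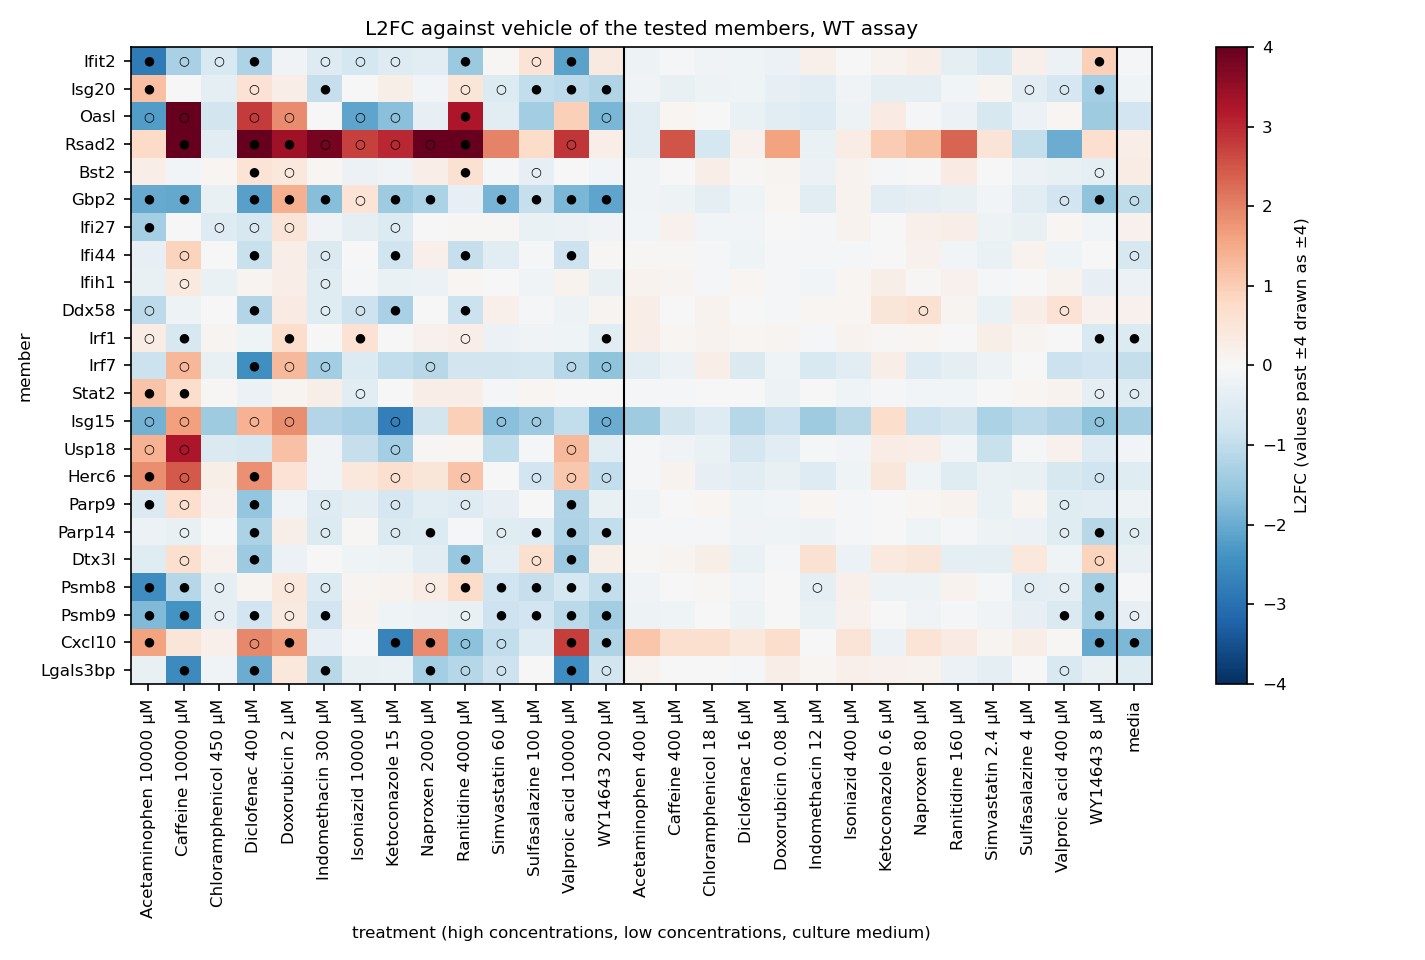
Log2 fold change (L2FC) against vehicle by WT assay, with the 23 tested members in rows and the high concentrations, the low concentrations and culture medium in columns. Open circles mark an adjusted p below 0.05 and filled circles a call in the same direction in both batches; colors end at 4, so that Rsad2 in diclofenac (6.68) and caffeine (6.62) is drawn at the limit. Gbp2 and Psmb9 are blue with filled circles across most high concentrations, and the low concentrations other than WY14643 8 µM and Valproic acid 400 µM hold 4 circles.

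Of 28 pairs of the 2 tested RNA sensors and a high concentration, 1 was higher (3.57%) and 7 were lower (25%), a share of lower calls near that of all pairs (25.5%). Ifih1 encodes MDA5 and Ddx58 encodes RIG-I, which detect viral RNA in the cytoplasm. Ddx58 was lower in 6 of 14 high concentrations, most in ketoconazole 15 µM (L2FC = -1.30, SE 0.23, adjusted p = 4.4e-07), and higher in naproxen 80 µM (0.60, adjusted p = 0.019) and Valproic acid 400 µM (0.57, adjusted p = 0.016). Ifih1 was called in 2 high concentrations, lower in indomethacin (-0.48) and higher in caffeine (0.38, adjusted p = 0.033). Without the 8 wells the caffeine value of Ifih1 was -0.17 (adjusted p = 0.29). With the counts of the wells added per rat, neither call of Ifih1 held (adjusted p = 0.1 and 0.15), nor did the rises of Ddx58 (adjusted p = 0.31 and 0.18).

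Among the transcription factors, Irf1 moved in both directions by modest amounts. Irf1 is a classical target of interferon gamma. Its vehicle wells held 61.7 to 63.9 CPM in batch 1 and 78.4 to 104 in batch 2. Doxorubicin 2 µM gave 80.6, 99.0 and 85.9 CPM in batch 1 and 189.1, 160.4 and 164.3 in batch 2, above every vehicle well of the same batch (L2FC = 0.70, SE 0.10, adjusted p = 1.9e-09). Isoniazid 10000 µM gave 107.7, 118.9 and 109.2 CPM in batch 1 and 114.5, 117.5 and 124.1 in batch 2, also above every vehicle well (0.57, SE 0.10, adjusted p = 7.1e-07). Caffeine lowered Irf1 (-0.63), as did WY14643 at 8 µM (-0.61) and at 200 µM (-0.43), each in both batches. The last was not called with counts added per rat (adjusted p = 0.088).

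Stat2, a subunit of the ISRE-binding complex, rose with acetaminophen 10000 µM in both batches. The wells held 116.5, 81.5 and 105.1 CPM in batch 1 and 89.5, 92.4 and 103.0 in batch 2, against 48.2, 64.3 and 49.1 CPM in vehicle of batch 1 and a range of 49.3 to 76.5 CPM in batch 2 (median 64.3). The groups did not overlap (L2FC = 1.15, SE 0.12, adjusted p = 6.7e-16). Caffeine also raised it (0.70, adjusted p = 2.7e-07; 0.38 and adjusted p = 0.0092 without the 8 wells). Isoniazid lowered Stat2 (-0.43, adjusted p = 0.0047), but not with counts added per rat (adjusted p = 0.13).

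Irf7, which amplifies type I interferon production, was the factor with the widest range. In diclofenac 400 µM it was at 0.175, 1.29 and 0.858 CPM in batch 1 and 4.40, 0.832 and 0.480 in batch 2, against 4.48, 16.6 and 8.21 CPM in vehicle of batch 1 and 2.76 to 9.30 in batch 2 (median 5.85). The L2FC was -2.45 (SE 0.52, adjusted p = 1.1e-05), lower in each batch, and 1 well of batch 2 lay within the vehicle range. In caffeine 10000 µM the L2FC was 1.34 (adjusted p = 0.0012), but the batch 2 wells were at 80.0, 4.32 and 1.05 CPM, so that 1 well was high and another lay below every vehicle well. Without the 8 wells the caffeine value reversed to -1.52 (adjusted p = 0.00027). Doxorubicin raised Irf7 to 10.4, 22.0 and 26.9 CPM in batch 1 and 10.2, 20.6 and 15.1 in batch 2 (1.29, SE 0.38, adjusted p = 0.0085), and in batch 1 these overlapped the vehicle well G10.

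The antiviral effectors held both the largest rise and the largest fall among the members. Over 84 pairs of 6 tested effectors and a high concentration, 22 were higher (26.2%) and 29 lower (34.5%), against 25.4% and 25.5% of all pairs. Rsad2 encodes viperin, an enzyme that makes a chain-terminating nucleotide, and it rose in 9 of 14 high concentrations and fell in none. Vehicle wells held 0.179 to 1.27 CPM in batch 1 and 0 to 1.03 in batch 2. Diclofenac 400 µM gave 10.1, 13.6 and 8.07 CPM in batch 1 and 130.5, 67.0 and 43.2 in batch 2, the largest increase among the members (L2FC = 6.68, SE 0.56, adjusted p = 8.7e-23). Ranitidine 4000 µM gave 6.89, 2.84 and 5.36 CPM in batch 1 and 36.3, 61.6 and 9.97 in batch 2 (5.77, SE 0.58, adjusted p = 1.8e-17). All 12 of these wells lay above every vehicle well, and the levels were higher in batch 2. The rise was called in both batches in 4 treatments, caffeine, diclofenac, doxorubicin and ranitidine, and the fold rests on few vehicle reads. In caffeine the L2FC was 6.62, and 4.83 without the 8 wells (adjusted p = 9.7e-14).

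Ifit2, an RNA-binding effector, fell in 9 high concentrations and rose in 1. Acetaminophen 10000 µM gave 4.95, 6.61 and 4.83 CPM in batch 1 and 3.78, 4.86 and 3.38 in batch 2, against 38.0 to 52.3 CPM in vehicle of batch 1 and 27.8 to 48.3 in batch 2 (L2FC = -2.83, SE 0.28, adjusted p = 4.5e-18). Valproic acid 10000 µM gave 17.7, 19.7 and 13.7 CPM in batch 1 and 4.41, 10.4 and 7.54 in batch 2 (-2.15, SE 0.25, adjusted p = 9.0e-14). Neither group overlapped vehicle. WY14643 8 µM raised Ifit2 to 58.1, 75.5 and 64.2 CPM in batch 1 and 61.9, 86.9 and 78.6 in batch 2, above all vehicle wells (0.96, SE 0.22, adjusted p = 6.9e-05). Sulfasalazine raised it by less (0.54, adjusted p = 0.037, and 0.14 with counts added per rat).

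Gbp2, a guanylate-binding GTPase that is classically induced by interferon gamma, was lower in 10 of 14 high concentrations, and each of these calls held in both batches. With counts added per rat the call in sulfasalazine 100 µM was lost (adjusted p = 0.089). With all wells the largest fall was in diclofenac 400 µM, at 7.50, 9.35 and 4.98 CPM in batch 1 and 11.7, 10.5 and 12.2 in batch 2 (L2FC = -2.16, SE 0.25, adjusted p = 1.0e-14). WY14643 200 µM gave 5.37, 4.13 and 4.02 CPM in batch 1 and 9.92, 8.74 and 14.5 in batch 2 (-2.11, SE 0.25, adjusted p = 8.5e-14). Vehicle wells of the same batches, 19.1 to 25.3 and 49.2 to 62.5 CPM, did not overlap either group. In caffeine 10000 µM the L2FC was -2.06 (adjusted p = 7.2e-14), and without the 8 wells it was -3.96 (adjusted p = 8.1e-30), then a larger fall than that in diclofenac (-2.20). Doxorubicin gave the opposite direction, at 57.4, 49.1 and 48.9 CPM in batch 1 and 180.1, 176.7 and 162.1 in batch 2, again with no overlap (1.41, SE 0.20, adjusted p = 5.5e-09). Isoniazid raised Gbp2 in the joint fit (0.56, adjusted p = 0.026), by 1.18 in batch 1 and 0.10 in batch 2. This call was lost without G10 (0.52, adjusted p = 0.052) and with counts added per rat (adjusted p = 0.27).

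The other effectors varied by treatment. Oasl rose in ranitidine 4000 µM to 39.5, 8.88 and 6.19 CPM in batch 1 and 29.97, 30.15 and 9.05 in batch 2, against 0.726, 9.10 and 1.07 CPM in vehicle of batch 1 and 1.21 to 3.84 in batch 2 (L2FC = 3.24, SE 0.49, adjusted p = 1.9e-09). Only the vehicle well G10 overlapped it, and without the 8 wells the value was 3.41. Oasl was lower in acetaminophen (-2.22, adjusted p = 0.015) and isoniazid (-2.11, adjusted p = 0.029), and without G10 the values were -1.59 (adjusted p = 0.097) and -1.47 (adjusted p = 0.17). Isg20, a 3′ to 5′ exonuclease, rose in acetaminophen (1.19, adjusted p = 1.6e-13) and fell in WY14643 8 µM (-1.37, adjusted p = 2.1e-12), WY14643 200 µM (-1.19) and Valproic acid 10000 µM (-1.04), all in both batches. Bst2, or tetherin, which holds budding virions at the cell surface, rose in ranitidine (0.61, adjusted p = 8.5e-06) and diclofenac (0.55, adjusted p = 5.1e-05). Ifi27 fell most in acetaminophen (-1.35, adjusted p = 7.9e-11), and Ifi44 in ranitidine (-0.92, adjusted p = 1.9e-05). Ifi44 in caffeine was at 0.90 with the 8 wells and 0.08 without them (adjusted p = 0.69).

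Calls of Isg15 changed with the single wells. It was called lower in 5 high concentrations, and without the 8 wells only the fall in ketoconazole 15 µM remained. That treatment gave 3.88, 2.40 and 1.15 CPM in batch 1 and 2.90, 3.68 and 3.64 in batch 2, below every vehicle well, of which the lowest was at 6.60 CPM (L2FC = -2.72, SE 0.67, adjusted p = 0.00028; -1.42 and adjusted p = 0.0027 without the 8 wells). When the vehicle well G10 alone was left out the value was -1.40 (adjusted p = 0.063). In acetaminophen the L2FC of -1.90 (adjusted p = 0.0055) became -0.58 (adjusted p = 0.4) without G10. The rise of Isg15 in caffeine, 1.65 (adjusted p = 0.0031), was 0.00 without the 8 wells (adjusted p = 0.99). The rise in ranitidine was not called with all wells (0.94, adjusted p = 0.1) and was 2.27 without G10 (adjusted p = 6.2e-05).

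Herc6, the rodent ligase that attaches ISG15 to proteins, rose in 6 high concentrations. Acetaminophen 10000 µM gave 21.7, 15.4 and 15.1 CPM in batch 1 and 17.8, 21.1 and 17.5 in batch 2, against 4.96, 15.5 and 5.89 CPM in vehicle of batch 1 and 4.30 to 7.19 in batch 2 (L2FC = 1.85, SE 0.27, adjusted p = 4.1e-10). G10 was the vehicle well at 15.5 CPM and overlapped the treated wells. Diclofenac raised Herc6 by 1.83 (adjusted p = 3.7e-10), and WY14643 200 µM gave -1.0 (adjusted p = 0.0059). Usp18 rose in caffeine (3.22, adjusted p = 3.5e-12), and by 2.12 without the 8 wells (adjusted p = 4.1e-07). It also rose in acetaminophen (1.38) and Valproic acid 10000 µM (1.31), where counts added per rat gave adjusted p = 0.057 and 0.086.

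The ADP-ribosyltransferases and their partner were called lower in 18 of 42 pairs at the high concentrations (42.9%) and higher in 3 (7.14%), against 25.5% and 25.4% of all pairs. Parp9 and its partner Dtx3l form a ubiquitin ligase, and Parp14 modifies proteins in macrophage and interferon signalling. Parp14 fell in 9 of 14 and rose in none, most in diclofenac (L2FC = -1.26, SE 0.15, adjusted p = 8.5e-14) and Valproic acid (-1.22). Parp9 in diclofenac 400 µM was at 3.84, 3.39 and 1.72 CPM in batch 1 and 5.92, 4.02 and 4.00 in batch 2, below the vehicle wells at 7.50 to 14.2 and 7.60 to 15.0 CPM (-1.56, SE 0.22, adjusted p = 5.5e-11). Dtx3l in ranitidine 4000 µM was at 2.25, 0.710 and 1.67 CPM in batch 1 and 2.01, 2.15 and 3.32 in batch 2, against 5.28 to 6.96 and 2.94 to 8.15 CPM in vehicle, and overlapped 1 vehicle well of batch 2 (-1.51, SE 0.31, adjusted p = 1.0e-05).

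The 2 tested immunoproteasome subunits were each lower in at least 8 of the 14 high concentrations. Psmb8 (LMP7) and Psmb9 (LMP2) replace constitutive subunits and generate peptides for MHC class I. Over their 28 pairs at the high concentrations 4 were higher (14.3%) and 18 lower (64.3%), against 25.4% and 25.5% of all pairs, and 14 of the lower calls held in both batches. Psmb9 was lower in 10 of 14, most in caffeine 10000 µM, at 5.92, 6.74 and 5.91 CPM in batch 1 and 28.1, 9.90 and 8.53 in batch 2, against 50.9 to 66.8 and 53.7 to 77.2 CPM in vehicle (L2FC = -2.40, SE 0.15, adjusted p = 7.6e-35). Psmb8 was lower in 8 of 14, most in acetaminophen 10000 µM, at 8.24, 9.68 and 12.1 CPM in batch 1 and 26.7, 32.1 and 20.0 in batch 2, against 91.3 to 114.7 and 146.6 to 197.1 CPM (-2.50, SE 0.14, adjusted p = 1.9e-37). No treated well overlapped vehicle in either case. The Psmb9 call in chloramphenicol 450 µM (-0.35, adjusted p = 0.025) was lost with counts added per rat (adjusted p = 0.2). Ranitidine raised Psmb8, at 182.4, 171.7 and 179.1 CPM in batch 1 and 247.5, 196.4 and 248.8 in batch 2 (0.72, SE 0.12, adjusted p = 1.0e-07), of which only 1 batch 2 well fell within the vehicle range, while Psmb9 was at -0.29 there (adjusted p = 0.036), a call that was lost without G10 (adjusted p = 0.052) and with counts added per rat (adjusted p = 0.23).

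Cxcl10, a chemokine that attracts T cells through CXCR3, had the largest rise with a call in both batches apart from Rsad2 and Oasl. Vehicle wells held 45.1, 63.9 and 46.8 CPM in batch 1 and 32.9 to 59.3 in batch 2 (median 42.0). Valproic acid 10000 µM gave 365.3, 507.2 and 404.2 CPM in batch 1 and 315.6, 301.5 and 273.5 in batch 2 (L2FC = 2.76, SE 0.35, adjusted p = 2.3e-12). Ketoconazole 15 µM gave 11.3, 10.2 and 7.07 CPM in batch 1 and 4.98, 4.27 and 3.99 in batch 2 (-2.67, SE 0.44, adjusted p = 5.0e-08). Both groups lay outside the vehicle range in every well. Naproxen (1.89), doxorubicin (1.70) and acetaminophen (1.60) raised Cxcl10 in both batches, and WY14643 lowered it at 8 µM (-2.02) and 200 µM (-1.20). With counts added per rat the calls in doxorubicin (adjusted p = 0.19) and WY14643 200 µM (adjusted p = 0.16) were lost. In diclofenac it was 1.92 in the joint fit, with -0.30 in batch 1 (adjusted p = 0.25) and 2.92 in batch 2 (adjusted p = 3.3e-10). The joint value was 1.11 (adjusted p = 7.2e-05) and that of batch 2 was 2.01 without the 8 wells. In caffeine the batch 2 wells were at 342.2, 17 and 9.44 CPM and the L2FC of 0.47 was not called, while without the 8 wells it was -2.03 (adjusted p = 7.8e-08).

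Lgals3bp, a secreted glycoprotein that binds galectin 3, fell in 8 of 14 high concentrations and rose in none. Caffeine 10000 µM gave 1.92, 3.08 and 1.33 CPM in batch 1 and 5.47, 2.79 and 0.262 in batch 2, against 15.8 to 17.7 and 13.2 to 18.5 CPM in vehicle, with no overlap (L2FC = -2.54, SE 0.27, adjusted p = 6.3e-16). Valproic acid 10000 µM gave a like fall (-2.48, SE 0.26, adjusted p = 3.0e-16). With counts added per rat the Lgals3bp call in simvastatin 60 µM was lost (adjusted p = 0.062).

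**Figure D4:**
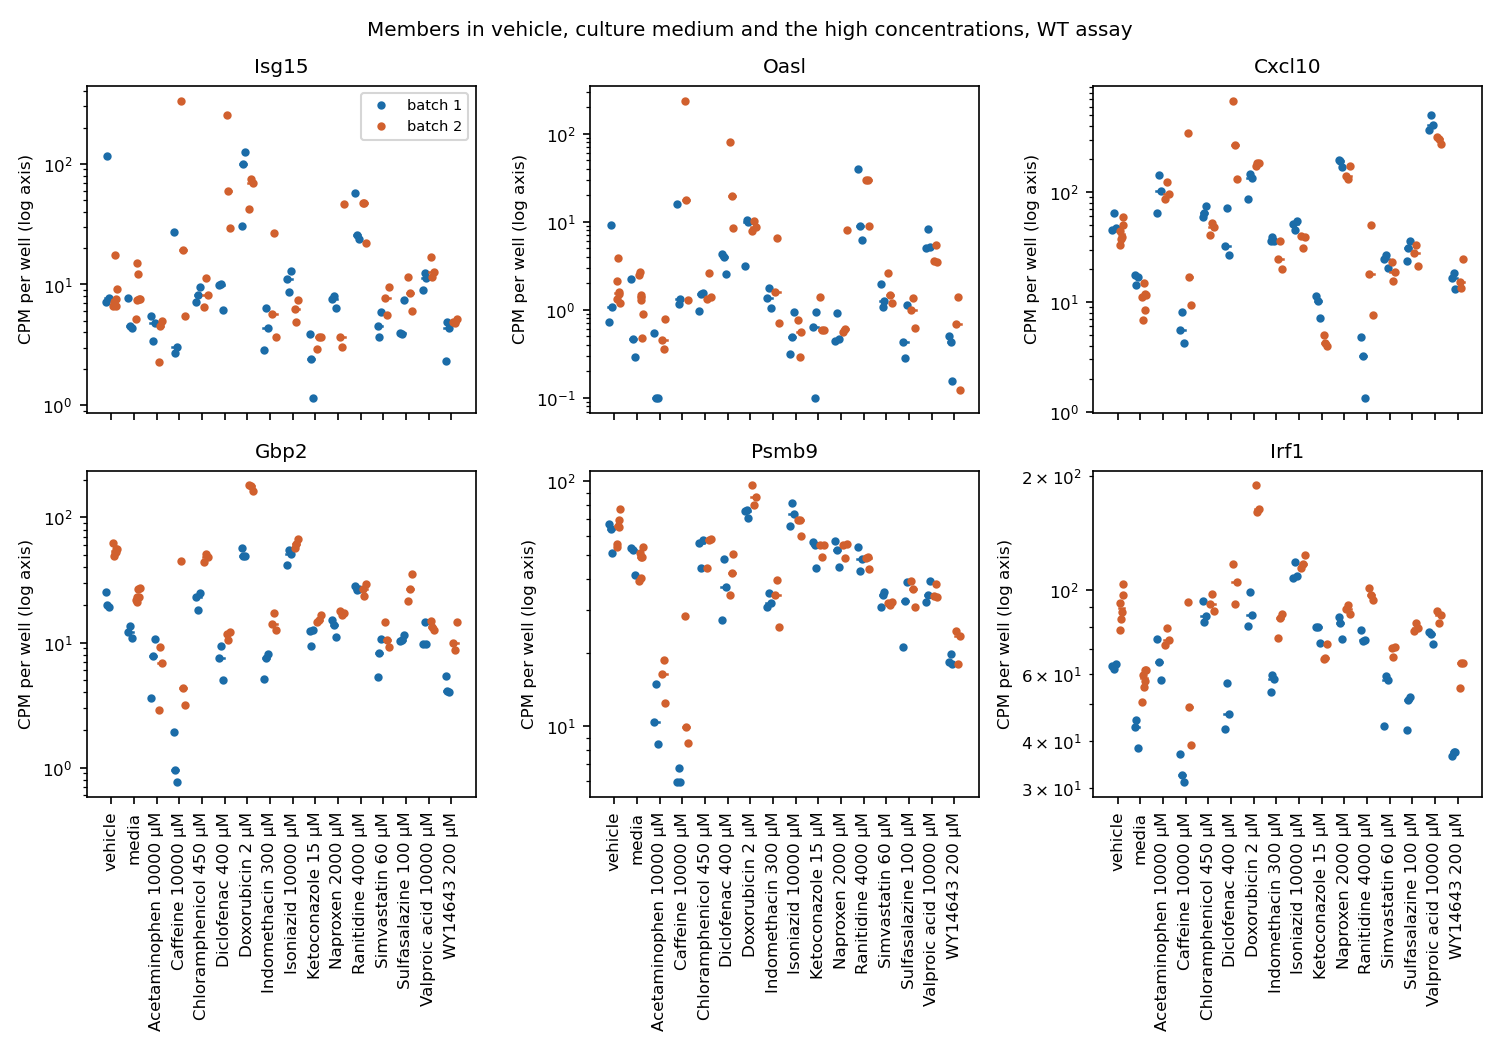
CPM per well on a log axis for 6 members in vehicle, culture medium and the high concentrations by WT assay. Each point is 1 well, colors are the batches, short bars are batch medians, and levels under 0.1 CPM are drawn at 0.1. A single high well of batch 1 vehicle is visible for Isg15 and Oasl, while Gbp2 and Psmb9 fall below vehicle in most columns and Gbp2 and Irf1 rise in doxorubicin.

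The 11 members raised by doxorubicin 2 µM, a DNA-intercalating inhibitor of topoisomerase II, were Isg15, Oasl, Irf1, Irf7, Psmb8, Psmb9, Ifi27, Cxcl10, Rsad2, Gbp2 and Bst2. The median L2FC of the 23 members was 0.43, and of all genes -0.01. The rises of Irf1, Cxcl10, Rsad2 and Gbp2 were called in both batches. With the counts of the wells added per rat Irf1, Rsad2 and Gbp2 were called (adjusted p = 0.017, 0.011 and 0.011) and the other 8 were not (adjusted p = 0.1 to 0.33). For Rsad2, well E10 of each batch had a CPM + 1 over 3 times that of the next highest doxorubicin well. These E10 wells are not among the 8 set apart, and adding counts per rat keeps them. Psmb9, Ifi27 and Bst2 were called in neither batch alone. Isg15 was at 30.6, 99.4 and 126.6 CPM in batch 1 and 42.2, 74.9 and 69.2 in batch 2 (L2FC = 1.87, SE 0.51, adjusted p = 0.0034), above every vehicle well but G10, which only 1 of the 6 wells exceeded. Without that vehicle well the value was 3.22 (adjusted p = 2.2e-07). The count of members called higher was 14 without the 8 wells. No share of all genes is given for that fit, and these wells were set apart by the members' own levels. Of further interferon-induced genes outside the 34, Cmpk2 (0.70), Gbp5 (0.39), Oas1b (1.54), Rnf213 (0.63), Samd9 (1.05), Sp100 (0.82) and Xaf1 (0.76) were higher in doxorubicin and Ifitm1 was lower (-5.54). Eif2ak2 (0.41), Adar (0.39), Igtp (0.43), Trim21 (0.21), Trim25 (0.18), Zc3hav1 (0.19) and Trex1 (0.34) were tested and not called, and 9.07% of all genes were higher in doxorubicin. Cell type markers moved with this result. Among those of non-parenchymal cells Cd163 (-5.81), Cd4 (-6.50), Clec4f (-4.56), Csf1r (-4.05) and Col1a2 (-3.48) were lower, while Cd14 (0.14) and Cd68 (-0.51) were not called. Of the 7 hepatocyte markers 4 were lower and 0 higher, and their sum was 25090 to 30380 CPM against 36750 to 44000 in vehicle. The summed level of 9 Kupffer cell and macrophage markers was 30.6 to 55.5 CPM in doxorubicin wells against 62.9 to 85.4 in vehicle, and of 6 stellate cell and fibroblast markers 3.70 to 17.7 CPM against 35.6 to 168.6 in vehicle. Their part in the result was not tested.

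WY14643, an agonist of the nuclear receptor PPAR alpha, lowered members at both concentrations. With 200 µM, Psmb9 was at 18.3, 19.8 and 17.9 CPM in batch 1 and, for the second rat, at 24.5, 18.0 and 23.3 CPM. The lower concentration gave 20.8, 18.8 and 16.8 CPM in batch 1 and 24.3, 21.4 and 19.7 in batch 2. All 12 wells lay below the lowest vehicle well at 50.9 CPM (L2FC = -1.38 and -1.34). Isg20, Irf1, Psmb8, Psmb9, Cxcl10, Gbp2 and Parp14 were lower in both batches at each concentration. Between the 2 concentrations 0 members differed (edgeR; 2 higher and 2 lower at an unadjusted p under 0.05, 0 by DESeq2), and 5.74% of all genes did. The comparisons of the 2 concentrations share their vehicle wells.

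Culture medium without DMSO lowered 7 members against vehicle and raised 0 (edgeR; 1 higher at an unadjusted p under 0.05, 0 by DESeq2), where 5.10% of all genes were lower and 7.51% higher. Cxcl10 was at 17.7, 14.2 and 16.8 CPM in batch 1 and 6.81 to 14.9 in batch 2 (median 11.3), below every vehicle well (L2FC = -1.81, SE 0.35, adjusted p = 4.1e-05). Gbp2 was at 12.2, 13.6 and 10.8 CPM in batch 1 and 21.0 to 27.2 in batch 2 (-1.01, SE 0.20, adjusted p = 4.7e-05). The fall of Gbp2 was called in batch 2 (adjusted p = 0.00014) but not in batch 1 (adjusted p = 0.065). Cxcl10 and Irf1 (-0.54) were lower in both batches, and Stat2 (-0.47), Ifi44 (-0.63), Parp14 (-0.47) and Psmb9 (-0.32) were lower in the joint fit. With the counts of the wells added per rat the 7 calls were lost (Cxcl10 and Gbp2 adjusted p = 0.39, edgeR), and Psmb9 was not called without G10 (adjusted p = 0.07). Vehicle is the reference of every treatment, and in the joint fit these 7 genes were higher in it than in the wells without DMSO.

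The high and the low concentration of the same chemical differed in 138 of 322 pairs, and 40.8% of all pairs did. Diclofenac had 19 of 23 members (70% of all genes) and ketoconazole 16 (41.7%), the highest counts, and WY14643 had 0 (5.74%). Rsad2 was higher at the high concentration in 8 chemicals. Ifit2 was lower in 9, and Ddx58, Gbp2 and Psmb9 were lower in 8 each.

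The effects of the batches differed from each other in 30 of 644 pairs at an adjusted p below 0.05, and in 2.44% of all pairs. The count was 17 without the vehicle well G10, 17 without the 8 wells and 7 without replicate 2 of every group. Of the 30, 14 were in caffeine 10000 µM, where 8.78% of all genes differed, and 6 in diclofenac 400 µM (10.1% of all genes). Isg15 in caffeine was -1.75 in batch 1 and 3.74 in batch 2, and Cxcl10 was -2.92 and 1.52. Both values of batch 2 include well F02, and the value of Isg15 in batch 1 includes the vehicle well G10. Without the 8 wells 0 of the 23 members differed between the batches in caffeine (edgeR) and 2 did in diclofenac, Stat2 and Cxcl10. In caffeine Isg15 was then -1.18 and 0.53 (adjusted p of the difference = 0.36), and Cxcl10 -2.74 and -1.64 (adjusted p = 0.27). Among others still differing were 4 members in Valproic acid 10000 µM, 3 in ranitidine 4000 µM, and 2 each in isoniazid 10000 µM and ketoconazole 15 µM. Cxcl10 in ranitidine 4000 µM was -3.88 in batch 1 and -0.75 in batch 2. This difference was 3.12 (adjusted p = 0.00013), and 3.39 without the 8 wells (adjusted p = 5.8e-07). The 8 wells were set apart by the members' own levels, and no share of all genes is given for that fit.

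By ST assay 170 of 476 pairs were called, and 34.8% of all pairs. Over the 15 members tested in both assays, no pair was called in opposite directions. Since the lysates were shared, the ST values are a check of the assay and not of the biology. Mx2 and Oas1a, a dynamin-like GTPase and an oligoadenylate synthetase, were tested by ST alone. Mx2 was lower in 12 high concentrations, and in 7 without the 8 wells. In vehicle its ST level was 22.6, 192 and 15.2 CPM in batch 1, with G10 again the high well, and 16.0 to 32.4 CPM in batch 2. Oas1a was lower in 4 high concentrations, and its largest rise was in caffeine (3.09, SE 0.52, adjusted p = 3.6e-08, and 2.13, adjusted p = 2.8e-05, without the 8 wells).

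**Figure D5:**
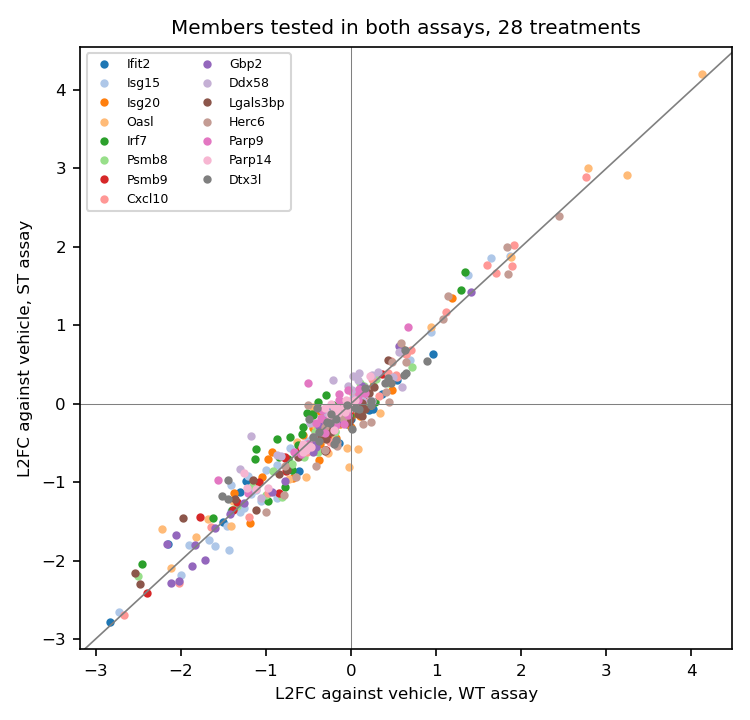
L2FC against vehicle by WT assay (x axis) and ST assay (y axis) for the 15 members tested in both, over 28 treatments, with 1 color per member. The grey diagonal marks equal values. Points lie along it over the whole range, from Ifit2 in acetaminophen at -2.83 to Oasl in caffeine at 4.13 on the x axis (1.87 without the 8 wells).

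The wider pathway was read from fixed lists, which were set with earlier results of these data known. Its counts at the high concentrations stand beside 25.4% higher and 25.5% lower over all pairs of genes and treatments. Among receptors and kinases 20 of 126 pairs were higher (15.9%) and 41 lower (32.5%). Jak2, a kinase of the interferon gamma receptor, was called in 12 treatments, 9 of them higher at a high concentration. Ifnar2, a chain of the type I receptor, was lower in 8 high concentrations. Irf3, the factor that switches on interferon beta, was lower in 12 high concentrations, and Stat3 in 7. Feedback genes had 21 higher (37.5%) and 9 lower (16.1%) of 56, and Socs3, which blocks JAK signalling, was higher in 7. Ptpn2 and Pias1 were each called in 9 treatments. Sensors and adaptors had 26 higher (37.1%) and 22 lower (31.4%) of 70, with Cgas, a DNA sensor, higher in 10, Tlr3, an endosomal RNA sensor, lower in 12 and Ikbke lower in 10. Among further interferon-induced genes, Gbp5 was lower in 12 and Trim25 higher in 6 and lower in 5. Of the antigen presentation list 15 were higher (13.4%) and 52 lower (46.4%) of 112. Psmb10, the third immunoproteasome subunit, was lower in 9, Tapbp, which helps to load MHC class I, in 9, and Psme1 in 8. Of the constitutive proteasome, 5 were higher (17.9%) and 1 lower (3.57%) of 28 pairs, 4 of the higher in Psmb7 and 1 in Psmb5. The NF-kB list had 11 higher (19.6%) and 23 lower (41.1%) of 56, with Icam1 called in 13 treatments and Ccl2 in 11. For comparison, hepatocyte markers had 15 higher (15.3%) and 51 lower (52%) of 98, and markers of Kupffer cells and macrophages 15 (21.4%) and 30 (42.9%) of 70. Leukocyte markers had 0 higher and 18 lower (64.3%) of 28, stellate cell and fibroblast markers 4 (9.52%) and 24 (57.1%) of 42, and biliary markers 7 (25%) and 9 (32.1%) of 28.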

How the data were processed

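TempO-Seq reads were deposited by the authors as raw counts per probe, with wells in rows, after STAR 2.5.3a alignment to rn6 (1 table per assay, 22253 WT and 2654 ST probes). Gene counts were the sum of a gene's probes, and CPM were relative to the total of a well. Testing, for genes averaging 10 counts or more over all wells, used edgeR 4.0.16 (R 4.3.3, limma 3.58.1) with TMM factors, the quasi-likelihood test, treatment and batch as terms and all wells in 1 fit. Each batch was also fitted alone, and a treatment-by-batch interaction gave the batch difference. P-values were adjusted over all genes by Benjamini-Hochberg, and an adjusted p below 0.05 was a call. The batch term is a block that pairs groups, since the labels give each batch and it holds the wells of 1 rat. The wells within it are technical replicates. DESeq2 1.42.0 was an alternative, as were other scaling, filters, wells and plates.

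Members and lists were chosen with earlier results of these data known. All members were described by role, with well values for up to 12 members with the largest L2FC called in both batches and for Psmb8, Psmb9, Irf1, Irf7 and Stat2, and from each further list the 2 genes called in most treatments. On counts simulated for doxorubicin 2 µM over 10191 genes, 47 of 50 genes changed by -1 on the log2 scale and 49 of 50 changed by 1 were recovered, and 13 unchanged genes were called. The simulated counts held no wells that stand apart and no effects differing between batches, so these rates cover neither. Probe sequences were not used here. Promoters came from RefSeq (GRCr8), so no rn6 coordinates are given. Counts over the lists of further transcription factors and of further interferon-induced genes are not reported here.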

Additional observations from a re-analysis of the deposited data

Results flagged for a closer look

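Among groups of 6 wells (vehicle and culture medium of batch 2), 46 combinations of a member and a group were examined for a single well far from the others, and 5 had one, where chance gives about 1 in 20. The highest vehicle well was at 17.57 CPM for Isg15 (the others 6.60 to 9.16) and at 3.84 CPM for Oasl (1.21 to 2.10). In culture medium the highest well was at 163 CPM for Psmb8 (141 to 147.2) and at 7.43 CPM for Dtx3l (4.18 to 5.29), and the lowest was at 35.8 CPM for Parp14 (44.3 to 47.8).

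The effects of 6 pairs of a member and a treatment were called in opposite directions in the 2 batches, and the difference itself was tested by the interaction term. The value of batch 2 minus batch 1 was 5.49 for Isg15 in caffeine 10000 µM (-1.75 and 3.74, adjusted p = 6.4e-06) and 4.44 for Cxcl10 there (-2.92 and 1.52, adjusted p = 1.4e-09). Both rest on wells that stand apart, F02 of caffeine in batch 2 and, for Isg15, the vehicle well G10 of batch 1: without the 8 such wells the values were 1.71 (-1.18 and 0.53, adjusted p = 0.36) and 1.10 (-2.74 and -1.64, adjusted p = 0.27). In diclofenac 400 µM it was 5.92 for Isg15 (-2.37 and 3.54, adjusted p = 1.7e-06) and 1.37 for Ifih1 (-0.70 and 0.65, adjusted p = 0.001). The batch 2 values there include well E02, and Isg15 in batch 1 uses G10. Without the 8 wells the differences were 1.98 for Isg15 (0.13 and 2.11, adjusted p = 0.07) and 0.44 for Ifih1 (-0.58 and -0.14, adjusted p = 0.4). It was -0.73 for Irf1 in ketoconazole 15 µM (0.39 and -0.33, adjusted p = 0.00037) and -1.47 for Gbp2 in ranitidine 4000 µM (0.48 and -0.96, adjusted p = 0.0022), and without the 8 wells -0.75 (adjusted p = 0.0001) and -1.42 (adjusted p = 0.00031). Batch, rat, library preparation and sequencing run cannot be told apart.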

How the results depend on the processing

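Of 116 pairs of a member and a treatment followed through the alternatives, 2571 of 2668 values kept direction and side of the threshold, 76 lost the call, 10 gained one and 11 reversed. Causes were not tested. The 116 are a part of all pairs, and pairs outside them also changed direction. Isg15 in caffeine 10000 µM was -1.75 in batch 1 alone and 3.74 in batch 2 alone. With an absolute L2FC of at least 1, the high-concentration counts were 34 higher (from 57) and 58 lower (from 109), the low ones 0 (from 4) and 7 (from 21), culture medium 2 (from 7), high against low 71 (from 138), ST 106 (from 170) and calls in both batches 59 (from 90). In batch 1 alone, 30 were higher at the high concentrations, 1 higher and 11 lower at the low, and 3 in medium. With counts added per rat the values were 37, 2, 9 and 0, with 90 for high against low and 106 for ST. Without the batch as a block the low-concentration count of higher calls was 2, and the other counts were 47 higher, 102 lower, 15 lower at the low concentrations, 6 in medium, 109 and 147. When each fit held just 1 treatment and vehicle, 9 were higher and 35 lower at the low concentrations. Without the 8 wells, an alternative chosen after seeing the data, 7 were higher there and the batches differed in 17 pairs (from 30). Leaving out 1 replicate number gave 2 to 4 higher and 11 to 24 lower at the low concentrations and 3 to 7 in medium. The batches differed in 7 to 30 pairs when 1 replicate number or 1 vehicle well of batch 1 was left out. Ifih1 in caffeine 10000 µM reversed in batch 1 alone (-0.23), without replicate 1 (-0.30, up to 0.70 without replicate 3) and without the 8 wells (-0.17), as did Irf7 (-0.95, -1.89, up to 2.04 without replicate 2, and -1.52). Isg15 in ketoconazole 0.6 µM reversed in batch 2 alone (-0.18), with vehicle of the same plate (-0.81), without replicate 3 (-1.61, up to 2.44 without replicate 2) and without the 8 wells (-0.17), and Rsad2 in caffeine 400 µM in batch 1 alone (-1.66). The batch difference without each vehicle well of batch 2 was not run. High against low does not contrast with vehicle, and no value was taken for it without single vehicle wells. Shares of all genes are not given for the counts under these alternatives.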
